A study of Mus musculus with 10 samples.

Results

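The 10 genes described here are repressors and D-box output genes of the circadian clock, and not all of its repressors. They comprise Per1, Per3, Cry1 and Cry2 of the period and cryptochrome families, the nuclear receptors Nr1d1 and Nr1d2, the PAR bZIP factors Dbp, Tef and Hlf, and Ciart. They were chosen by name with earlier results of these data known. All 10 were measured, and they were tested among 22180 genes. Tissue labelled subepithelial mesenchyme came from the tracheas of male FVB/NJ mice 9 weeks old. Of these mice, 5 were killed 4 days after breathing 235 ppm chlorine for 1 hr and 5 were left unexposed. Stained frozen sections were laser-captured, the captures of a mouse were pooled, and 1 Affymetrix array was run per mouse. Strain, sex and age are shared by both groups. The mice are separate animals, and their number limits the precision. Values are log2 intensities, so that a difference of 1 is 2-fold. The labels give no time of day for the collection in either group. A shift in the phase of the clock between groups and a difference at equal phase therefore cannot be told apart.

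The mammalian clock is a transcriptional feedback loop that runs in nearly every cell. CLOCK and its partner BMAL1, encoded by Arntl, bind E-boxes in DNA and switch on the Per, Cry, Nr1d, PAR bZIP and Ciart genes. PER and CRY proteins return to block CLOCK and BMAL1, while NR1D1 and NR1D2 (REV-ERB alpha and beta) silence Arntl through ROR elements. DBP, TEF and HLF carry the rhythm onward by activating genes through D-boxes, where the repressor NFIL3 competes with them. In airways the clock is known for daily rhythms of inflammatory responses.

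Letter matches to the sites of this loop occurred in the promoters of several of the 10 genes. The RefSeq promoter table (GRCm38.p6, 250 bases before and 50 after each start) held 12 entries for the 10 genes. An E-box, spelled CACGTG and searched on both strands, occurred in 5 of the 12 entries, from 4 genes (Per1, Cry1, Tef and Ciart). It occurred in 7.15% of all 32851 promoters in the table. The E′-box CACGTT, read on the other strand as AACGTG, occurred in Cry1, Cry2 and Nr1d1 and in 4.68% of all promoters. The D-box TTATGTAA occurred in Per3 and in 0.938% of all promoters, and its palindromic form TTACGTAA in 0 of the 12 entries and 0.119% of all. The ROR element core NTAGGTCA was in 0 of the 12 entries and in 2.59% of all promoters. Dbp, Hlf and Nr1d2 had no match to any of these motifs in the window. The motifs did not overlap one another in these windows, and a match describes the letters, not binding. These promoters are shown because Per3 carries the D-box 2 times, Ciart the E-box 3 times and Cry1 both E-box forms. Per1 and Nr1d1 carry 1 form each. Capitals mark the motifs, and each sequence reads 5′ to 3′ along the gene and ends before its start.
Per3 (chr4:151044786-151044900, minus strand, D-boxes from -205 and -158): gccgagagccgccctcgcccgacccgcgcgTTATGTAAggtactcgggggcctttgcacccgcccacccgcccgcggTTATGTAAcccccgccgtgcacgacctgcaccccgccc
Ciart (chr3:95882237-95882374, minus strand, E-boxes from -116, -58 and -44): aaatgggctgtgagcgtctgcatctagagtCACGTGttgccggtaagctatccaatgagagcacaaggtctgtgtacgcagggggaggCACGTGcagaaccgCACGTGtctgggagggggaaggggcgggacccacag
Cry1 (chr10:85185079-85185163, minus strand, E′-box from -79 and E-box from -60): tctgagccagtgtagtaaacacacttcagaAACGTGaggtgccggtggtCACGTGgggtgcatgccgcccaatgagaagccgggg
Per1 (chr11:69098753-69098818, plus strand, E-box from -166): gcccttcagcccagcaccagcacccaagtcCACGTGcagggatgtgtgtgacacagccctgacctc
Nr1d1 (chr11:98775378-98775435, minus strand, E′-box from -28): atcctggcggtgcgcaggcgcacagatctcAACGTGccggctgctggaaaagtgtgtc

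Transcripts of all 10 genes averaged lower in the chlorine-exposed mice, and 9 of the 10 passed the test. Per3 fell most, to 38.3% of its unexposed level. Dbp fell to 47.5%, Hlf to 51.1%, Nr1d1 to 52.7% and Nr1d2 to 56.2%, while Ciart, Cry2, Cry1 and Tef fell to between 59.4% and 64.4%. Per1 averaged 66.3% of its unexposed level and did not pass (limma adjusted p = 0.0619). Of all 22180 genes, 4.97% passed as lower and 5.85% as higher at an adjusted p under 0.05, and 0 of the 10 clock genes passed as higher. In 9 of the 10 every exposed mouse lay below every unexposed mouse, which held for 5.06% of all genes. The 10 were chosen with earlier results of these data known, so their counts beside these shares are description, not a test. The median log2 change was -0.79 over the 10 genes and -0.003 over all genes. A fold of at least 2 with a call was reached by 2 of the 10, Per3 and Dbp. This count and the place of Tef rest on the mean of its 2 probe sets. With the brighter probe set alone Tef changed by -1.39, as much as Per3. These are bulk samples, so fewer cells that express a gene and less transcript per cell cannot be told apart.

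**Figure D1:**
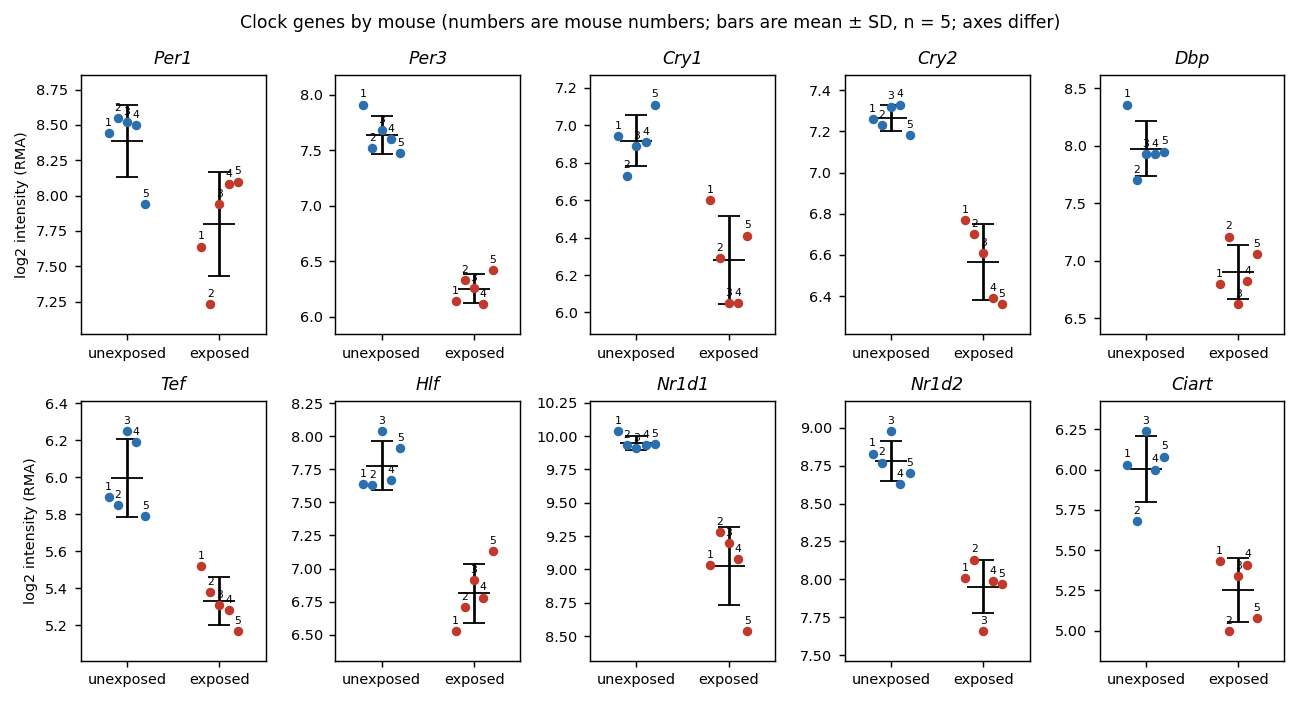
Log2 intensity of each of the 10 clock genes (vertical axes, which differ between panels) in the 5 unexposed and 5 exposed mice, 1 numbered point per mouse, with the mean and SD of each group. The groups are separate in 9 panels and overlap for Per1, where unexposed mouse 5 (7.94) lies below exposed mice 4 and 5 (8.08 and 8.10).

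Period proteins are the repressors whose daily accumulation closes the loop. Per3 read 7.91, 7.52, 7.68, 7.60 and 7.47 in unexposed mice 1 to 5 and 6.14, 6.33, 6.26, 6.11 and 6.42 in exposed mice 1 to 5. The groups were separated by a gap of 1.05, wider than the range within either group. Its mean went from 7.64 ± 0.17 to 6.25 ± 0.13 (SD, n = 5 each), a log2 change of -1.39 (SE 0.11, limma adjusted p = 3.97e-05), and ranked as the 20th smallest p of the 22180 genes.

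Per1, a period gene that also responds directly to light, hormones and stress, was less even across mice. It read 8.44, 8.55, 8.52, 8.50 and 7.94 in unexposed mice 1 to 5 and 7.64, 7.23, 7.94, 8.08 and 8.10 in exposed mice 1 to 5. Exposed mice 1 and 2 were below every unexposed mouse, and the other three lay at or above the lowest unexposed one. The log2 change was -0.59 (SE 0.18, 95% interval -0.99 to -0.19). Without unexposed mouse 5 the change was -0.71 and passed (limma adjusted p = 0.0329, with 0.0329 to 0.129 over the limma alternatives). Per2 had no probe set naming it alone and was not analysed here.

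Cryptochromes are the stronger repressors of CLOCK and BMAL1. Cry1 read 6.94, 6.73, 6.89, 6.91 and 7.11 in unexposed mice 1 to 5 and 6.60, 6.29, 6.05, 6.05 and 6.41 in exposed mice 1 to 5. Exposed mouse 1 came within 0.13 of the lowest unexposed mouse, and exposed mice 3 and 4 were lowest. The log2 change of Cry1 was -0.64 (SE 0.12, limma adjusted p = 0.00731). Cry2 read 7.26, 7.23, 7.32, 7.33 and 7.18 in unexposed and 6.77, 6.70, 6.61, 6.39 and 6.36 in exposed mice 1 to 5. Its unexposed mice were nearly equal (SD 0.06), and the groups lay 0.40 apart. Cry2 changed by -0.70 (SE 0.10, limma adjusted p = 0.00127).

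The REV-ERB receptors repress Arntl and many metabolic genes, and both fell. Nr1d1 read 10.04, 9.93, 9.91, 9.93 and 9.94 in unexposed mice 1 to 5 and 9.03, 9.28, 9.20, 9.08 and 8.54 in exposed mice 1 to 5. The unexposed mice were nearly equal (SD 0.05), while the exposed ones spread more (SD 0.29), with exposed mouse 5 lowest. The log2 change was -0.92 (SE 0.13, limma adjusted p = 0.00101). Nr1d1 overlaps the oppositely transcribed gene Thra, and whether the probes separate them was not tested. Nr1d2 read 8.83, 8.77, 8.98, 8.63 and 8.70 in unexposed and 8.01, 8.13, 7.66, 7.99 and 7.97 in exposed mice 1 to 5. Exposed mouse 3 was lowest for Nr1d2, a different mouse from the one lowest for Nr1d1. Nr1d2 changed by -0.83 (SE 0.11, limma adjusted p = 0.000669).

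Ciart, also called CHRONO, is a repressor that binds BMAL1. It read 6.03, 5.68, 6.24, 6.0 and 6.08 in unexposed mice 1 to 5 and 5.43, 5.00, 5.34, 5.41 and 5.08 in exposed mice 1 to 5. The groups were separate by 0.25, with unexposed mouse 2 nearest to the exposed mice. Its log2 change was -0.75 (SE 0.13, limma adjusted p = 0.00327).

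The 3 PAR bZIP factors, which bind D-boxes, all fell. Dbp, whose transcript is among the most strongly rhythmic in many organs, read 8.36, 7.70, 7.93, 7.93 and 7.95 in unexposed and 6.80, 7.21, 6.62, 6.82 and 7.06 in exposed mice 1 to 5. Unexposed mouse 1 stood highest and exposed mouse 3 lowest, and the groups lay 0.49 apart. The log2 change of Dbp was -1.07 (SE 0.14, limma adjusted p = 0.000776). Hlf read 7.64, 7.63, 8.04, 7.67 and 7.91 in unexposed and 6.53, 6.71, 6.91, 6.78 and 7.13 in exposed mice 1 to 5, with a gap of 0.51 and exposed mouse 1 lowest. Hlf changed by -0.97 (SE 0.13, limma adjusted p = 0.000749).

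Tef was the gene whose value depended on how its probe sets were joined. As the mean of 2 probe sets it read 5.89, 5.85, 6.25, 6.19 and 5.79 in unexposed and 5.52, 5.38, 5.31, 5.28 and 5.17 in exposed mice 1 to 5, a log2 change of -0.66 (SE 0.12, limma adjusted p = 0.00395). Probe set 17313376 went from 7.29 ± 0.20 to 5.90 ± 0.17 (SD, n = 5 each), a change of -1.39, with no overlap between groups. Probe set 17319524 stood at 4.70 ± 0.23 and 4.76 ± 0.12 (SD, n = 5 each), a difference of 0.06 with overlapping groups. Both unexposed and exposed means of the second lay below the array medians of 5.10 to 5.18, and no detection limit is at hand for it. With the brighter probe set alone Tef changed by -1.39 (limma adjusted p = 6.27e-05), as much as Per3. The other 9 genes had 1 probe set each.

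**Figure D2:**
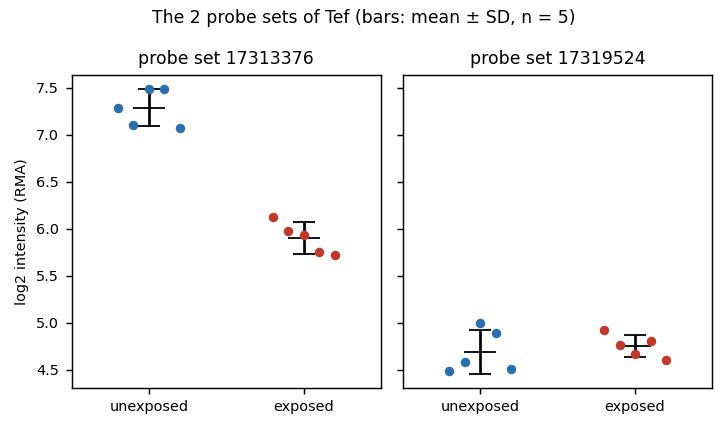
Log2 intensity (vertical axis) of the 2 probe sets that name Tef alone, 1 point per mouse with the mean and SD of each group. Probe set 17313376 separates the groups (7.29 against 5.90 on average) and probe set 17319524 does not (4.70 against 4.76).

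Related genes of the loop were compared pair by pair, asking whether their within-mouse difference changed, by two-sided exact permutation tests adjusted over the 6 pairs. Per1 averaged a smaller fall than Per3, and their changes differed by 0.79 (SE 0.21, exact p = 0.0238, adjusted exact p = 0.143), so the pair did not pass. Without exposed mouse 2 that difference was 0.96 (adjusted exact p = 0.0476). In 11 of the 12 alternatives the pair did not pass either (adjusted exact p up to 0.321). Cry1 and Cry2 differed in their change by 0.06 (SE 0.13, adjusted exact p = 0.675), Nr1d1 and Nr1d2 by -0.09 (SE 0.17, adjusted exact p = 0.675) and Dbp and Hlf by -0.10 (SE 0.20, adjusted exact p = 0.675). Dbp minus Tef was -0.41 (SE 0.20, adjusted exact p = 0.238) and Tef minus Hlf 0.31 (SE 0.19, adjusted exact p = 0.333). Both signs turned with the brighter Tef probe set, to 0.31 and -0.42. With 5 mice against 5 no exact p can be under 0.00794, and the pairs that did not pass are not shown to change alike.

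Across mice, the 10 genes averaged to nearly the same value in each exposed mouse, although each gene had its own order. Averaged over the 10 and set against the unexposed mean, exposed mice 1 to 5 stood at -0.82, -0.85, -0.88, -0.87 and -0.84. The unexposed mice lay between -0.11 and 0.11. No single exposed mouse was lowest throughout: mouse 5 was lowest of its group for 3 genes (Cry2, Tef and Nr1d1), mouse 2 for Per1 and Ciart, mouse 3 for Dbp and Nr1d2, mouse 4 for Per3 and Cry1, and mouse 1 for Hlf. Mouse 5 was also the highest of its group for 3 genes, Per1, Per3 and Hlf. Per1 deviated by -1.17 in exposed mouse 2 and -0.29 in exposed mouse 5, the widest range of the 10 among exposed mice.

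**Figure D3:**
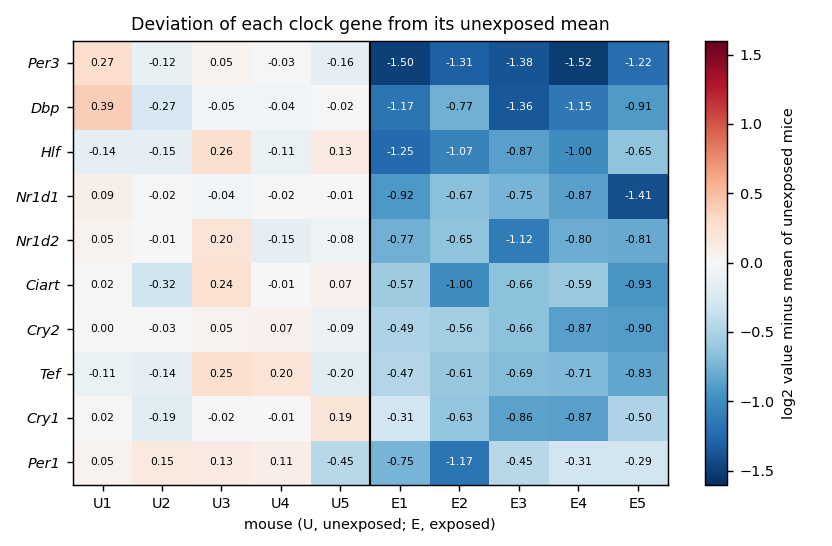
Deviation of each clock gene (rows, ordered by mean change) from its mean in unexposed mice, on the log2 scale, in unexposed mice U1 to U5 and exposed mice E1 to E5; the colour scale runs from blue for lower to red for higher. Every exposed cell is below 0, from -1.52 for Per3 in E4 to -0.29 for Per1 in E5, and the darkest cell moves from mouse to mouse between genes.

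Among the activators and the genes of opposing phase, Nfil3 was the one that passed. Of 6 measured genes of the activator and opposing-phase list (Arntl, Clock, Npas2, Nfil3, Rora and Rorb), 1 passed as higher and 0 as lower. The list had a median log2 change of 0.20. Of all genes, 5.85% passed as higher and 4.97% as lower. Nfil3, which represses through the D-boxes that DBP, TEF and HLF activate, read 6.97, 7.23, 7.29, 6.99 and 7.15 in unexposed and 7.77, 7.70, 8.01, 8.10 and 7.92 in exposed mice 1 to 5. The groups did not overlap, and it rose 1.71-fold (log2 change 0.77, SE 0.11, limma adjusted p = 0.000971). Arntl went from 6.31 ± 0.35 to 6.75 ± 0.16 (SD, n = 5 each), a change of 0.44 (limma adjusted p = 0.107). Unexposed mouse 2, at 6.79, stood above 4 of the exposed mice, and without it Arntl changed by 0.56 (limma adjusted p = 0.0317, with 0.0317 to 0.199 over the leave-one-out fits). Clock changed by 0.23 and Rora by -0.23 (limma adjusted p = 0.119 each). With only genes averaging at least 6 kept, both passed (limma adjusted p = 0.0383 and 0.0378). Clock also passed with trend and robust eBayes (limma adjusted p = 0.0476), and neither passed in the other alternatives. For Rora the highest exposed mouse read 6.57 and the lowest unexposed mouse 6.58, so the groups did not overlap, as in 5.06% of all genes.

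Of 11 measured genes listed for other feedback and for setting the period, 1 passed as lower and 1 as higher. Their median log2 change was -0.11. Over all genes 4.97% passed as lower and 5.85% as higher, so these counts are near the background and are no result about the list. Bhlhe41 (DEC2), an E-box repressor that the clock itself drives, fell from 6.04 ± 0.14 to 5.09 ± 0.39 (SD, n = 5 each), a log2 change of -0.95 (limma adjusted p = 0.00444). Bhlhe40, of the same list, stood at 8.42 unexposed and 8.31 exposed (log2 change -0.11, limma adjusted p = 0.656). Nono, an RNA-binding partner of PER proteins, rose by 0.37 (limma adjusted p = 0.0303). Nono no longer passed when any of exposed mice 2, 4 and 5 or unexposed mice 3, 4 and 5 was left out (limma adjusted p 0.015 to 0.0764 over the 10 such fits), nor with the mouse number as a block (adjusted p = 0.0788).

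Of 12 measured output genes known to follow the clock in many organs, 3 fell, 1 rose and 8 did not pass, with a median of 0.05, where 4.97% of all genes passed as lower and 5.85% as higher. Usp2, a deubiquitinase whose transcript tracks the clock across organs, read 7.86, 7.49, 8.04, 7.81 and 7.89 in unexposed and 7.19, 7.16, 6.75, 7.09 and 6.77 in exposed mice 1 to 5. It fell without overlap (log2 change -0.83, SE 0.13, limma adjusted p = 0.00217). Alas1, the first enzyme of heme synthesis, fell by 1.92 on the log2 scale (limma adjusted p = 0.00438), and the exposed mice ranged widely. Exposed mice 1 to 5 read 9.41, 8.97, 7.13, 8.13 and 8.78, and the mean of 6 secretory cell markers in them was 11.60, 10.90, 5.24, 9.69 and 9.81. Both stood in the same order over these mice, and the part of secretory cells in the fall of Alas1 was not tested. Klf15, a metabolic transcription factor, fell by 0.64 (limma adjusted p = 0.0289) but no longer passed when exposed mouse 4 or any of unexposed mice 3, 4 and 5 was left out (adjusted p up to 0.0703). Cdkn1a, the cell cycle inhibitor p21, rose by 1.03 (limma adjusted p = 0.000246).

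**Figure D4:**
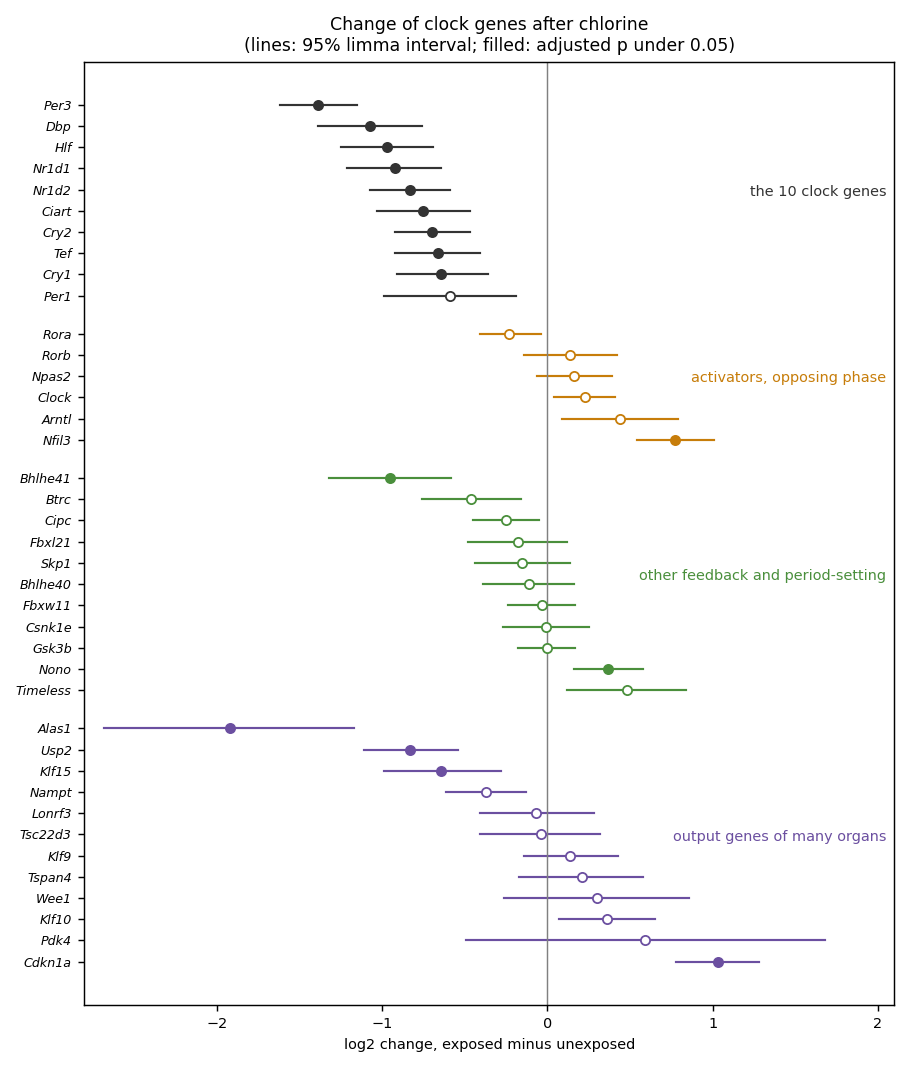
Log2 change (horizontal axis, exposed minus unexposed) with its 95% limma interval for the 10 clock genes and for 3 other groups of clock-related genes; filled points passed at an adjusted p under 0.05. The 10 clock genes all lie left of 0, from -1.39 for Per3 to -0.59 for Per1, while the other groups hold points on both sides.

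Per1 is also induced by glucocorticoids, and genes listed for that response were examined beside the clock. Of 16 measured, Per1 among them, 5 passed as higher and 0 as lower, with a median log2 change of 0.14. Of all genes, 5.85% passed as higher and 4.97% as lower. In 7 of the 16, Per1 included, the exposed mice averaged lower. Fkbp5, a chaperone that tunes the glucocorticoid receptor, rose by 1.39 (limma adjusted p = 0.00132), Zbtb16 by 1.07 (adjusted p = 0.027) and the metallothioneins Mt1 and Mt2 by 1.45 and 2.27 (adjusted p = 6.33e-05 and 1.98e-06). Cdkn1a was the fifth. Zbtb16 no longer passed when any of exposed mice 3, 4 and 5 or unexposed mice 1, 2 and 4 was left out (adjusted p up to 0.0696). Nor did it pass without exposed mice 1 and 3 together (adjusted p = 0.0883). Tsc22d3 and Klf9, which follow both the clock and glucocorticoids, changed by -0.04 and 0.14 and did not pass (limma adjusted p = 0.915 and 0.568). Mt1 and Mt2 are close paralogs whose probes may not be fully separate.

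Outside the 10, the genes most like them were sought by the root mean square difference over the 10 mice from the mean profile of the 10, each gene centred on its unexposed mean. The nearest were Slc6a6, the taurine transporter (0.123), Ahsa2 (0.124), Efemp1, a matrix glycoprotein of the fibulin family (0.134), Sntb1, a syntrophin (0.135), and Thrb, the thyroid hormone receptor beta (0.139). Their log2 changes were -0.72, -0.85, -0.79, -0.88 and -0.90. The 10 clock genes themselves lay between 0.122 (Nr1d2) and 0.393 (Per3) from the mean that they form. This is a description of profiles in these mice, with no test.

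Markers of several cell types that the captures could hold moved between the groups, where 4.97% of all genes passed as lower and 5.85% as higher. Ciliated cell markers, 9 of 10 measured and 4 called lower, had a mean of 4.85 to 7.91 across exposed mice and of 7.82 to 8.29 across unexposed mice. Secretory cell markers, 6 of 6 measured and 1 called lower, averaged 5.24 to 11.60 and 11.88 to 12.10. Cartilage markers, 8 of 8 measured and 3 called lower, averaged 5.71 to 7.99 and 7.36 to 8.59. The ciliated, secretory and cartilage lists are thus the ones with members called lower. Basal cell markers, 4 of 5 measured and 1 called higher, averaged 7.57 to 8.90 after chlorine and 7.53 to 7.88 without it. The called one was the keratin Krt14, named after its values were seen, which rose 19.9-fold (log2 change 4.31, limma adjusted p = 6.77e-06). Krt15, Trp63 and Ngfr averaged lower (log2 changes -0.52, -0.40 and -0.12) and did not pass, and the basal list median was -0.26. Macrophage markers (6 of 6 measured, 4 called higher) averaged 8.38 to 9.22 with chlorine and 7.48 to 8.11 in its absence. Neutrophil markers (5 of 5, 2 called higher) averaged 4.74 to 6.17 and 3.92 to 4.31, and markers of dividing cells (4 of 5, all 4 called higher) 7.34 to 8.24 and 5.28 to 5.63. Fibroblast markers (7 of 7, 3 called higher) had a median log2 change of 0.34, and their means in the groups overlapped. Endothelial markers (5 of 5) averaged 6.83 to 7.73 and 6.62 to 7.29, and 1 was called higher. It was the receptor gene Tek (0.46, limma adjusted p = 0.0492, named after its values were seen), which no longer passed when any of exposed mice 2, 3, 4 and 5 or unexposed mice 1, 2, 4 and 5 was left out (adjusted p up to 0.114). Pan-epithelial, smooth muscle, adipocyte and T and B cell markers had 0 called members.

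Among 6 tissue genes named whatever their values, Acta2, of smooth muscle, stood at 11.51 unexposed and 11.60 exposed (log2 change 0.09, limma adjusted p = 0.825). Epcam, an epithelial gene, changed by -0.28 (limma adjusted p = 0.592) from 8.40, so that transcripts of an epithelial gene were present in material labelled subepithelial mesenchyme. Secretory cell markers averaged 11.88 to 12.10 in the unexposed mice, and how much epithelium the captures held was not tested. Ptprc, the leukocyte gene, changed by 0.22 (limma adjusted p = 0.628), Mki67 by 2.26 (4.4e-05), Col1a1 by 0.87 (0.0191) and Col3a1 by 1.04 (0.00295). With exposed mouse 4 left out, Col1a1 no longer passed (adjusted p = 0.0501). No detection limit is at hand, so no marker can be called absent.

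Beside the means of the 10 clock genes given above, the ciliated means of exposed mice 1 to 5 were 7.91, 7.36, 4.85, 6.13 and 5.12. Exposed mouse 1 lay within the unexposed range for ciliated markers, below it for secretory markers (11.60) and above it for basal and dividing cell markers (8.90 and 7.42). Exposed mouse 3 had the lowest ciliated and secretory means (4.85 and 5.24). Without exposed mice 1 and 3, 9 of the 10 clock genes passed as lower, Per3 at -1.35 and Nr1d1 at -0.98, and Per1 at -0.59 did not pass (limma adjusted p = 0.128). The ciliated and secretory means of the 3 exposed mice in that fit were still below those of every unexposed mouse. The part of ciliated, secretory and basal epithelium, cartilage, fibroblasts, endothelium, macrophages, neutrophils and dividing cells in the differences of the clock genes was not tested.

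**Figure D5:**
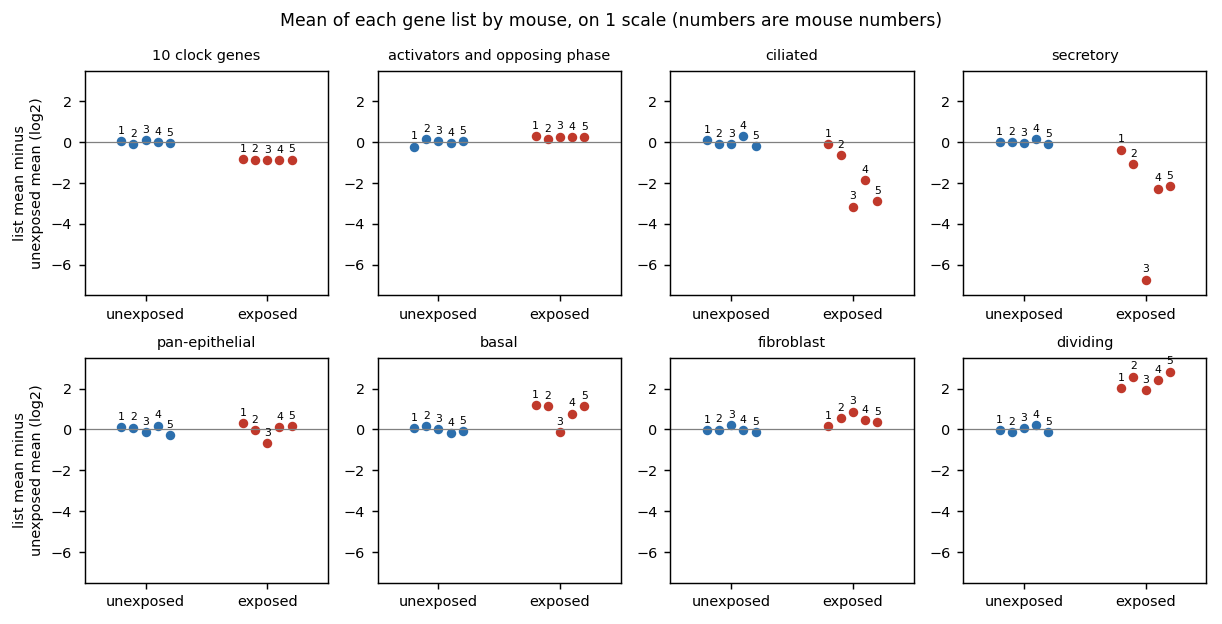
Mean log2 value of each gene list per mouse minus its unexposed mean (vertical axis, the same in all panels), 1 numbered point per mouse. The 10 clock genes lie below 0 in all exposed mice (-0.82 to -0.88), and the secretory means of all exposed mice lie below the unexposed ones. The dividing cell means lie above them, and the basal means do so in every exposed mouse but mouse 3. Of the measured basal genes, only Krt14 averaged higher after chlorine.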

How the data were processed

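Values were log2 intensities per probe set as the authors deposited them, made with Partek 6.6 and RMA (robust multi-array averaging) per the submitters' processing notes. Settings and probe set filters are not stated there. The log base was taken from RMA and the range of the values. Of 41345 probe sets, 23521 had 1 gene symbol in the platform annotation, 1814 had several and 16010 were unlisted. A gene's value was the mean of its single-symbol probe sets. All 10 symbols matched the RefSeq table by gene identifier. Exposed and unexposed mice were contrasted by lmFit and eBayes of limma 3.58.1 under R 4.3.3 (two-sided, no covariate, no block), with Benjamini-Hochberg adjustment over all genes and a threshold of 0.05. The fit was checked on simulated data. The 10 genes, the other lists and the alternatives were chosen with earlier results of these data known. By rule, up to 4 called genes per direction of each clock-related and glucocorticoid list were named. The 5 genes of most similar profile and 6 fixed tissue genes were named too. Clock, Rora, Arntl, Bhlhe40, Tsc22d3, Klf9, Tek and the basal markers were named besides. Per2 and others without a probe set of their own were not analysed here. Python 3.11.15, pandas 2.3.3 and matplotlib 3.10.9 served for tables and plots.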

Additional observations from a re-analysis of the deposited data

Results flagged for a closer look

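Among 20 groups of 5 mice (the 10 clock genes in each group), 2 held a mouse whose distance from the next exceeded Dixon's limit, and chance gives about 1 in 20. Per1 was lowest in unexposed mouse 5 at 7.94, where the other unexposed mice read 8.44 to 8.55. Nr1d1 was highest in unexposed mouse 1 at 10.04, where the others read 9.91 to 9.94.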

How the results depend on the processing

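The 9 called genes stayed lower and passed in all 187 combinations of gene and alternative (log2 changes -1.43 to -0.58, limma adjusted p up to 0.0215). Among the alternatives was the unadjusted exact permutation test. It gave its smallest possible p, 0.00794, for each of the 9, as it must where the groups do not overlap. Ciart and Tef had no value with only genes averaging at least 6. Leaving out 1 mouse kept 9 or 10 of the 10 called, and a fold of at least 2 left 2. Per1 passed in 6 of 21 alternatives. These were array weights (-0.67, adjusted p = 0.0363), genes averaging at least 5 or 6 (-0.59, adjusted p = 0.0409 and 0.0367), trend and robust eBayes (-0.59, adjusted p = 0.0438), the fit without unexposed mouse 5 and the unadjusted exact permutation test (-0.59, p = 0.0317). With 1 mouse left out Per1 ranged from -0.71 to -0.45. Over all genes, 1102 were lower and 1298 higher. With 1 mouse left out 723 to 1407 were lower (725 and 723 without unexposed mouse 1 and 4) and 944 to 1432 higher. At an adjusted p under 0.01 they numbered 435 and 619, and at a 2-fold minimum 349 and 411. Called lower in the clock-related and glucocorticoid lists beyond the 10 were 4 genes, 7 with genes averaging at least 6 and 1 at a 2-fold minimum. In the marker lists 8 were lower, 15 with the mean of 6 pan-epithelial genes as a covariate, 17 without exposed mice 1 and 3 and 2 at an adjusted p under 0.01. Those 6 genes had a median change of -0.01. Their mean ranged from 8.27 to 9.26 across exposed mice and from 8.68 to 9.14 across unexposed mice. Whether that mean tracks ciliated or secretory cells was not tested. With 1 mouse left out, the pair differences were 0.69 to 0.96 for Per1 and Per3, -0.02 to 0.13 for Cry1 and Cry2, -0.21 to 0.03 for Nr1d1 and Nr1d2 and -0.21 to 0.03 for Dbp and Hlf. With the brighter Tef probe set, Dbp minus Tef became 0.31 and Tef minus Hlf -0.42. Acta2 ranged from -0.03 to 0.19. The causes were not tested. Mice of equal number deviated together little (correlation of deviations across genes -0.05 to 0.12, highest with the own number in 1 of 5). Whether equal numbers mark a pairing was not tested. With the replicate block 9 of the 10 were called, Per3 at -1.39 (adjusted p = 0.00134), and 854 genes were lower and 1026 higher over all.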
